A study of Mus musculus with 12 samples.

Results

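The synaptic vesicle and SNARE release genes are 38 genes chosen by name for their part in neurotransmitter release, out of 43346 annotated genes in the deposited tables. All 38 symbols matched 1 gene each. They were read in 12 Smart-seq RNA libraries from 1 mouse, a male of strain B6CASTF1/J, a hybrid of Castaneus and C57Bl6, aged 14 months. Smart-seq is a full-length cDNA method for very small amounts of RNA. The lysate of 13 excised Purkinje cells was pooled and then divided, so that each library holds 1 cell-equivalent of total RNA (molecules over 200 bases) and added spike-in RNA. The libraries carry technical replicate numbers 1 to 6 and 8 to 13, which name them here, and they form 1 group with no treatment and no control. Every p-value below therefore measures the technical spread between divisions of 1 homogenate from 1 mouse, and says nothing about differences between animals or between cells.

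Purkinje cells are the inhibitory output neurons of the cerebellar cortex, and release GABA from terminals on the cerebellar nuclei. In a nerve terminal, a vesicle SNARE protein zips together with the SNAREs of the plasma membrane to drive fusion, a synaptotagmin senses the calcium that triggers it, and active zone proteins dock and prime the vesicles. The ATPase NSF and its SNAP adaptors then take the spent SNARE complexes apart, and dynamin and its partners retrieve the membrane.

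Expected counts on annotated genes ranged from 13694600 to 24108900 per library, and spike-ins held 7.70% to 23.5% of the TPM. TPM scales counts by transcript length and library total, so that levels of different genes can be set side by side. The 12 Purkinje markers summed to between 21176 and 36976 TPM per library, and for 11 of them no library had under 50 counts. The 9 markers of Bergmann glia and astrocytes summed to between 1342 and 3638 TPM, the 12 granule cell markers to between 92.9 and 937 TPM, the 9 interneuron markers to between 83.8 and 714 TPM, the 8 oligodendrocyte markers to between 91.3 and 378 TPM, and the 5 red blood cell genes to between 362 and 1551 TPM. The interneuron sum, 359 TPM on average, was mostly Npy, at a mean of 322 TPM. Npy was the only 1 of the 9 with at least 50 counts in every library, and Sst was at 0 throughout. Microglial markers ranged from 0 to 446 TPM, with C1qc and Fcer1g at 0 throughout, and vascular markers from 0 to 290.1 TPM, with Cldn5, Acta2 and Kdr at 0. Whether release gene RNA came from Purkinje cells or from these other cells was not tested, and in a pooled lysate fewer cells of a type and less RNA per cell cannot be told apart.

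Snap25 encodes SNAP-25, the SNARE held on the plasma membrane by a lipid anchor. Its exon 5 exists as neighbouring copies of 118 bases, of which a transcript uses 1: the upstream copy is known as 5a and the downstream copy as 5b. The copies are shown because Snap25 was the highest of the 38 genes and its reads fell almost wholly on a transcript with 5b. Both are from GENCODE M21 transcripts on mm10, plus strand, 5′ to 3′; capitals mark the 31 positions at which the copies differ, and the other 87 bases are shared. The 5b copy, in Snap25-201, lies at chr2:136770057-136770174, and the 5a copy, in Snap25-202, at chr2:136769743-136769860.
Snap25-201 exon 5 (5b): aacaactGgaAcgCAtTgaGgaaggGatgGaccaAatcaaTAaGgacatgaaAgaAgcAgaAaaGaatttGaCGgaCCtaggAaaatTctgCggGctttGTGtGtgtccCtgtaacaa
Snap25-202 exon 5 (5a): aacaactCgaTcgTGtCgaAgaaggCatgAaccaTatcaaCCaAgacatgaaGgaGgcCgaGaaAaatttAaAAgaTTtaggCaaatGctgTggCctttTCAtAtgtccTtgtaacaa

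Snap25-201 stood at 1156, 1646 and 2067 TPM (lowest, median and highest of the 12 libraries), against a highest value of 15.7 TPM, in library 4, for Snap25-202. The transcript with 5b thus held 99.4 ± 0.564% of the gene's TPM (SD, n = 12) and led in every library. Snap25-202 was listed at 0 in 8 libraries and at most 0.10 TPM in libraries 1, 2 and 8. Snap25-203, annotated as a retained intron and without either copy, made up the rest. The transcripts with 5b and 5a also differ in their first and last exons, so the share describes whole transcripts as the deposited estimates divide them, and not reads across exon 5 alone.

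The 38 genes together held 4158 ± 431 TPM on average (SD, n = 12), with the lowest sum, 3425, in library 2 and the highest, 4815, in library 8. This is 0.416 ± 0.0431% of all TPM, spike-ins included. Of the TPM of annotated genes alone, the share was lowest in library 1, at 0.396%, and highest in library 8, at 0.608%. The 5 membrane SNAREs made up 46.4 ± 6.86% of the sum of the 38 genes, the 3 Rab3 genes with their effector Rph3a 15.8 ± 6.14%, and the 8 active zone genes 2.02 ± 1.12%. Snap25 was the highest of the 38 in all 12 libraries, and Rab3a the next in 11 of them, with Napa in its place in library 12. Across the 37 members with any count, longer genes tended to have a lower mean TPM, at a Spearman correlation of -0.57 with effective length. The points share the same 12 libraries, and effective lengths ran from 1251 to 16038 bases. TPM is itself scaled by effective length, so the compared quantities are not independent. The correlation over all genes is not given here.

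**Figure D1:**
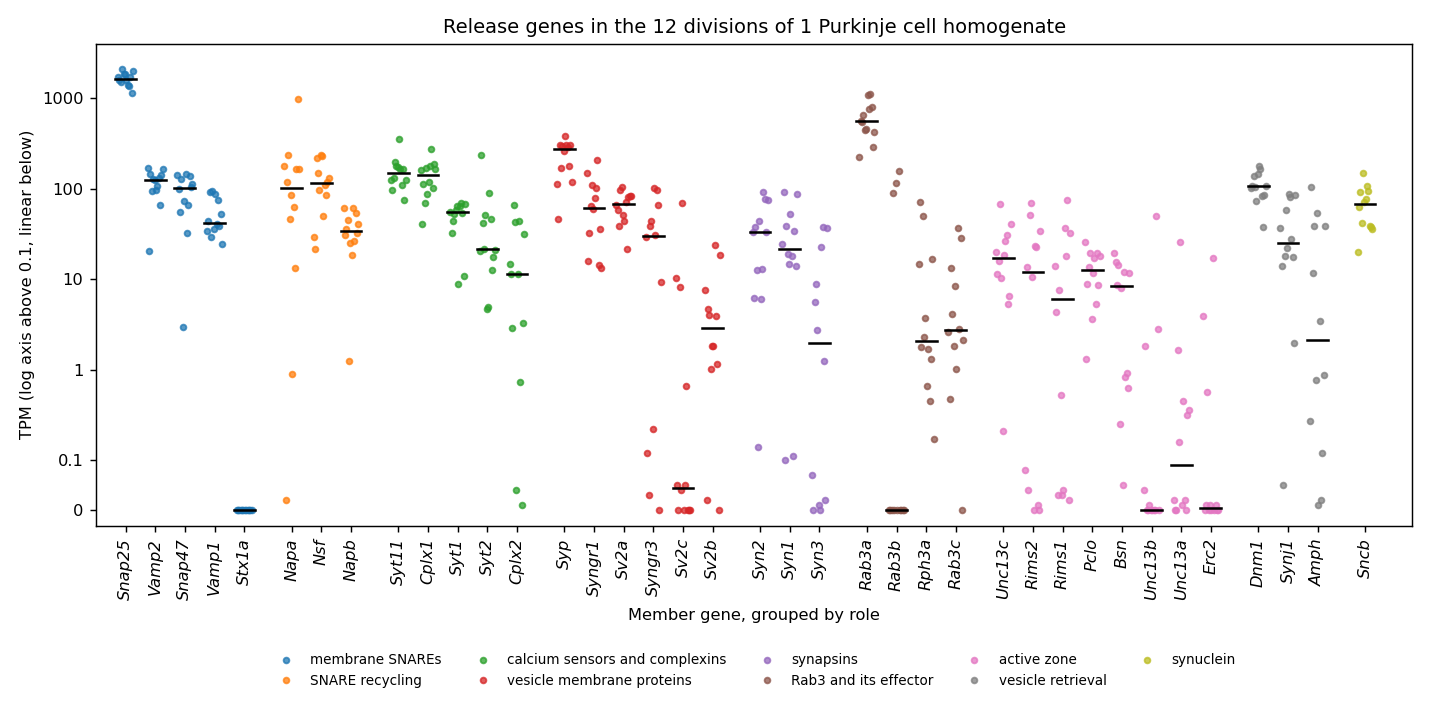
TPM of each of the 38 release genes (x axis, grouped by role) in each of the 12 libraries (points), with the median as a bar; the y axis is logarithmic above 0.1 and linear below. Snap25 lies between 1156 and 2092 TPM, Stx1a is at 0 in every library, and the active zone genes scatter from 0 to 75.2 TPM.

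At least 50 counts in every library were found for 17 of the 38 genes (44.7%), against 6.98% of 21474 protein-coding genes. A further 10 reached 50 counts in 10 or 11 libraries, 5 in 7 or 8, and 5 in 3 to 5. Set beside genes of like level, 7 of 8 members with a mean TPM from 100 to 1000 passed in every library (87.5%), against 72.1% of all such genes, and 9 of 20 from 10 to 100 TPM (45.0%), against 13.7%. None of the 8 members from 1 to 10 TPM passed, where 0.372% of all such genes did. These shares by level are over annotated genes of every type, not protein-coding genes alone. The limit of 50 counts is not scaled by length, so at the same TPM a longer gene passes more easily. Genes were not matched on length. Stx1a was the only member without a count in any library.

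Among the membrane SNAREs the levels were steep. Snap25 (ENSMUSG00000027273.9, chr2:136713453-136782428) stood at 1156, 1648 and 2092 TPM as lowest, median and highest, with a mean of 1657 ± 275 TPM. Snap47, a relative of SNAP-25 that lacks its lipid anchor, stood at 2.98, 102 and 146 TPM, and was lowest in library 5. No library of one gene overlapped any library of the other: the mean log2 ratio of Snap25 over Snap47 was 4.52 ± 1.49 (SD, n = 12), on the scale of log2(TPM + 1), with p = 0.000488 by an exact sign-flip permutation test (two-sided), the smallest p that 12 libraries can give, and an adjusted p of 0.00146 over the 30 pairs of related genes. Snap23, another relative of SNAP-25, had reads in 3 libraries and a mean of 1.49 ± 4.15 TPM (0.328 TPM without library 13), and Snap25 was higher in all 12.

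Vamp2 and Vamp1 encode the vesicle SNAREs synaptobrevin 2 and 1. Vamp2 (ENSMUSG00000020894.12, chr11:69088490-69092384) stood at 20.8, 127 and 168 TPM and Vamp1 (chr6:125215551-125245964) at 24.6, 42.5 and 94.3 TPM, so both were read throughout and their ranges overlapped. Within libraries Vamp2 was higher in 11 of 12, with library 2 the exception, and the mean log2 ratio of Vamp2 over Vamp1 was 1.08 ± 1.01 (exact sign-flip permutation p = 0.00537, adjusted p = 0.0101 over the 30 pairs).

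Stx1a encodes syntaxin 1A, a plasma membrane SNARE of the fusion complex. Stx1a (ENSMUSG00000007207.6, chr5:135023482-135051100) had 0 counts among the 219668000 gene counts of the 12 libraries, which allows up to 0.0137 CPM (library-scaled counts with no length term), for counting error only.

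Complex disassembly was read through Nsf and the SNAP adaptors. Nsf (ENSMUSG00000034187.14, chr11:103821782-103954056), the ATPase, stood at 21.5, 115 and 239 TPM, lowest in library 2 and highest in library 6. In library 6 the retained intron transcript Nsf-208, of 513 bases effective length, carried 140.5 TPM. The protein-coding Nsf-202 held 40.5% of the gene's TPM there, and was itself highest in library 8, at 227.35 TPM. Napa (ENSMUSG00000006024.8, chr7:16098458-16117975), which encodes α-SNAP, stood at 0.02, 102 and 991.5 TPM, the widest range among the 27 members with a count in every library. Its highest value was in library 12 and its lowest in library 2; its mean was 172 ± 269 TPM with library 12 and 97.3 TPM without it. Napb, β-SNAP, stood at 1.25, 34.4 and 61.8 TPM with at least 50 counts in every library. The log2 ratio of Napa over Napb was 0.90 ± 2.86 and did not pass (exact sign-flip permutation p = 0.293, adjusted p = 0.339), with Napa higher in 9 libraries, and on CPM, which is not scaled by length, the mean turned to -0.47. In library 12 the retained intron transcript Napa-206, of 396 bases effective length, carried 397 TPM and the protein-coding Napa-201, of 2418 bases, 342 TPM.

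Of the synaptotagmins, the fast calcium sensors stood below a relative. Syt1, the fast sensor of forebrain synapses, stood at 8.92, 55.4 and 69.4 TPM. Syt2, the sensor of many fast hindbrain and cerebellar synapses, stood at 4.71, 21.4 and 235 TPM, highest in library 2. Without library 2 its mean was 30.2 TPM in place of 47.3 ± 63.8 TPM. In library 2 the processed transcript Syt2-202, of 386 bases effective length, carried 129.92 TPM and Syt2-203, of 284 bases, 82.19 TPM. The protein-coding Syt2-201, of 6780 bases, held 6.91% of the gene's TPM in that library. Syt11 (ENSMUSG00000068923.10, chr3:88744700-88775164), a synaptotagmin that does not bind calcium and is known to restrain endocytosis, stood at 75.5, 148 and 357 TPM. Syt1 was below Syt11 in all 12 libraries, by a log2 ratio of -1.79 ± 1.18 (exact sign-flip permutation p = 0.000488, adjusted p = 0.00146). Syt2 was below Syt11 in 11 libraries, by -2.41 ± 1.88 (exact sign-flip permutation p = 0.00195, adjusted p = 0.00451).

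Both fast sensors had at least 50 counts in every library, and no order between them passed: Syt1 was higher in 9 libraries, by a log2 ratio of 0.62 ± 1.58 (exact sign-flip permutation p = 0.198, adjusted p = 0.259). Without library 2 the ratio was 0.93 with an adjusted p of 0.0358 by the same permutation test. Complexins clamp and assist the SNARE complex. Cplx1 (ENSMUSG00000033615.9, chr5:108518554-108550024) stood at 40.6, 141 and 277 TPM and Cplx2 at 0.01, 11.4 and 67.1 TPM. Cplx1 was higher in every library, from 0.04 in library 4 to 7.32 on the log2 scale, with a mean ratio of 3.79 ± 2.31 (exact sign-flip permutation p = 0.000488, adjusted p = 0.00146).

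Vesicle membrane proteins were led by Syp (ENSMUSG00000031144.11, chrX:7638471-7653256), synaptophysin, at 46.5, 278 and 380.4 TPM, with its lowest value in library 2. Sv2a, a vesicle glycoprotein and the target of levetiracetam, stood at 21.7, 68.6 and 104 TPM. Sv2b stood at 0, 2.88 and 24.0 TPM, and Sv2c, a receptor for botulinum neurotoxin A, at 0, 0.045 and 69.8 TPM. Sv2a was thus the main SV2 form: it was above Sv2b in 12 libraries, by 3.94 ± 1.63 on the log2 scale (exact sign-flip permutation p = 0.000488, adjusted p = 0.00146), and above Sv2c in 11, by 4.82 ± 2.14 (exact sign-flip permutation p = 0.000977, adjusted p = 0.00244).

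Library 6 was the exception for Sv2c, which averaged 7.44 TPM with it and 1.78 TPM without it. The order of Sv2b and Sv2c did not pass (log2 ratio 0.88 ± 2.44, adjusted p = 0.289 by the exact sign-flip permutation test), and by the same permutation test it did without library 6 (1.38, adjusted p = 0.0391) and on CPM (2.30, adjusted p = 0.0322). Syngr1 and Syngr3 encode synaptogyrins, tetraspan relatives of synaptophysin. Syngr1 stood at 13.5, 61.9 and 207 TPM and Syngr3 at 0, 30.1 and 101.5 TPM. Syngr1 was higher in 10 libraries, by 2.08 ± 2.42 (exact sign-flip permutation p = 0.0142, adjusted p = 0.0236), with the order turned in libraries 8 and 11.

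Synapsins are phosphoproteins that tether vesicles in the reserve pool. Syn1 stood at 0.10, 21.8 and 93.0 TPM and Syn2 at 0.14, 33.6 and 91.6 TPM, and each was higher in 6 of the 12 libraries. The log2 ratio of Syn1 over Syn2 was -0.23 ± 3.21 (adjusted p = 0.828 by the exact sign-flip permutation test), so a preference was not detectable here. The values of single libraries spread widely, from -6.38 to 4.13, with Syn1 nearly absent in libraries 3 and 10 and Syn2 in library 5. Syn2-202 shares 90 of its 3854 exon bases with Timp4 on the opposite strand, a glial gene at 393 ± 232 TPM (SD, n = 12).

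Syn3 stood at 0, 2.00 and 38.1 TPM. Syn2 was above Syn3 in 10 libraries (2.43 ± 2.43, exact sign-flip permutation p = 0.00781, adjusted p = 0.0138), while Syn1 over Syn3 did not pass (2.19 ± 3.45, exact sign-flip permutation p = 0.0527, adjusted p = 0.0833). It passed by the same permutation test without library 3 (adjusted p = 0.0447) or without library 10 (adjusted p = 0.0172). All Syn3 reads were assigned to Syn3-203, a retained intron transcript. Of its 4775 exon bases, 1733 also lie in exons of Timp3 on the opposite strand, and the strand setting of the counting is not given in the sources used here. Over the 12 libraries, both were at 1 TPM or more in library 4 (Syn3 8.95 and Timp3 43.9 TPM), library 5 (2.74 and 18.2 TPM) and library 10 (38.1 and 2.45 TPM). Syn3 alone reached 1 TPM in libraries 3, 9, 11 and 13, Timp3 alone in libraries 1 and 6, and neither in libraries 2, 8 and 12. Whether Syn3 and Timp3 share reads was not tested.

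Rab3 proteins are the GTPases of synaptic vesicles, and Rph3a encodes their effector rabphilin. Rab3a (ENSMUSG00000031840.8, chr8:70754679-70758677) stood at 225, 558 and 1115 TPM. Rab3b (ENSMUSG00000003411.6, chr4:108879063-108943324) was read in 3 libraries alone: it had 89.2 TPM in library 4, 117 TPM in library 6 and 156 TPM in library 9, and no count in the other 9. Its mean was 30.2 ± 56.5 TPM, and 18.7 TPM without library 9. Rab3c stood at 0, 2.72 and 37.1 TPM. Rab3a was thus the main Rab3 form: it was above Rab3b in every library (7.40 ± 3.12 on the log2 scale, exact sign-flip permutation p = 0.000488, adjusted p = 0.00146), and above Rab3c in every library (6.78 ± 1.58, with the same p and adjusted p by that permutation test). Rab3b was above Rab3c in those 3 libraries and below it in 8, and the log2 ratio of Rab3b over Rab3c of -0.62 ± 2.73 did not pass (adjusted p = 0.490 by the exact sign-flip permutation test), though it passed on CPM (-3.12, adjusted p = 0.0103 by the same permutation test) and turned to 0.23 with a pseudocount of 10. Rph3a stood at 0.17, 2.06 and 72.2 TPM, with 72.2 TPM in library 2 and 50.8 TPM in library 4, and under 17 TPM elsewhere; its mean was 13.9 TPM with library 2 and 8.60 TPM without it.

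The 8 active zone genes had a median of 10.2 mean TPM, the lowest of the roles, and only Pclo among them, the giant scaffold piccolo, had at least 50 counts in every library. Munc13 proteins prime docked vesicles for fusion. Unc13a, the Munc13-1 gene, stood at 0, 0.09 and 25.8 TPM, and Unc13b, the Munc13-2 gene, at 0, 0 and 49.7 TPM. Unc13c, which encodes the Munc13-3 known from the cerebellum, led with 0.21, 17.2 and 68.5 TPM. Unc13a was below Unc13c in 11 libraries, with a log2 ratio of Unc13a over Unc13c of -3.27 ± 2.57 (exact sign-flip permutation p = 0.00488, adjusted p = 0.00977). Unc13b was below Unc13c in 11 libraries too, with a ratio of Unc13b over Unc13c of -3.15 ± 2.62 (exact sign-flip permutation p = 0.00342, adjusted p = 0.00732).

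The exceptions were library 6 for Unc13a and library 11 for Unc13b, and each of these libraries set the mean. Unc13a averaged 2.40 TPM with library 6 and 0.272 TPM without it, and Unc13b 4.54 TPM with library 11 and 0.428 TPM without it. In library 11, Unc13b-208, of 470 bases effective length, carried 27.85 TPM and the retained intron transcript Unc13b-207, of 937 bases, 21.51 TPM. The protein-coding Unc13b-201, of 6255 bases, reached at most 1.82 TPM, in library 2. Rims1 and Rims2, the RIM scaffolds that bind Rab3 and Munc13, stood at 0.02, 6.01 and 75.2 TPM and at 0, 12.2 and 69.2 TPM. Their order did not pass (log2 ratio of Rims1 over Rims2 -0.22 ± 3.09, adjusted p = 0.828 by the exact sign-flip permutation test), and both had at least 50 counts in 7 libraries. Without library 11 the mean of Rims1 was 10.4 TPM in place of 15.8 TPM. Unc13a-201 shares 495 of its 10255 exon bases with Colgalt1 on the opposite strand, which stood at 13.5 ± 18.4 TPM (SD, n = 12).

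Bsn, the giant scaffold bassoon, stood at 0.05, 8.44 and 19.3 TPM and the related Pclo at 1.30, 12.7 and 25.6 TPM. Bsn was the lower in 9 libraries, and the log2 ratio of Bsn over Pclo of -1.08 ± 2.06 did not pass (exact sign-flip permutation p = 0.0947, adjusted p = 0.129). It passed by the same permutation test without library 2 (-1.44, adjusted p = 0.0396) and on CPM (-2.34, adjusted p = 0.0228). Erc2, the ELKS scaffold of presynaptic terminals, had reads in 6 libraries and stood at 0, 0.005 and 17.0 TPM. Its more widely expressed relative Erc1 was higher in 9 libraries, with a log2 ratio of Erc2 over Erc1 of -1.13 ± 2.07 (exact sign-flip permutation p = 0.0840, adjusted p = 0.120). Library 9 held most of the Erc2 signal, and without it the mean was 0.415 TPM in place of 1.80 TPM and the ratio passed (adjusted p = 0.00837 by the same permutation test), as it did with a pseudocount of 0.1 (adjusted p = 0.0339).

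For membrane retrieval, Dnm1 (ENSMUSG00000026825.13, chr2:32308471-32353338), the neuronal dynamin that pinches vesicles off, stood at 37.9, 107 and 180.1 TPM. Dnm2, the general form, had no count in 6 libraries and at most 14.3 TPM, and Dnm1 was above it in every library (5.67 ± 1.81, exact sign-flip permutation p = 0.000488, adjusted p = 0.00146). Dnm3, the other neuronal dynamin, stood at 18.3, 64.7 and 275 TPM. The log2 ratio of Dnm1 over Dnm3 was 0.82 ± 1.37 and did not pass (exact sign-flip permutation p = 0.0630, adjusted p = 0.0945). It passed by the same permutation test without library 2 (adjusted p = 0.0370) or library 11 (adjusted p = 0.0278), and turned to -0.78 on CPM.

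Synj1, the synaptojanin that strips phosphoinositides from clathrin-coated vesicles, stood at 0.05, 25.2 and 88.3 TPM, and was above Synj2 in every library (3.43 ± 2.33, exact sign-flip permutation p = 0.000488, adjusted p = 0.00146). The log2 ratio ran from 0.03 in library 3 to 6.48 in library 8. In library 3 both genes were nearly absent, with Synj1 at 0.05 and Synj2 at 0.03 TPM. Amph, amphiphysin, stood at 0.01, 2.15 and 105 TPM and had at least 50 counts in 7 libraries. Its order with Bin1, amphiphysin 2, did not pass (log2 ratio of Amph over Bin1 -1.29 ± 3.65, adjusted p = 0.289 by the exact sign-flip permutation test). Without library 2 the mean of Amph was 13.5 TPM in place of 21.1 TPM.

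Sncb (ENSMUSG00000034891.9, chr13:54758860-54766595), β-synuclein, a presynaptic protein, stood at 20.1, 67.5 and 149 TPM and was read in every library.

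In all, 18 of the 30 pairs passed at an adjusted p under 0.05 by the exact sign-flip permutation test. The first gene of the pair was higher in 13 of them and the second in 5. In 10 of the 18 the order was the same in every library. The test asks only whether the genes of a pair differ in level within libraries. The share of passing pairs among other genes is not given here, so the count is not read as a trait of release genes. Of the 22 pairs in which both genes belong to the 38, 13 passed. The sizes of ratios with low or absent genes depend on the pseudocount of 1 TPM: the mean log2 ratio of Rab3a over Rab3b was 9.89 with a pseudocount of 0.1 and 4.91 with 10, that of Dnm1 over Dnm2 7.75 and 3.24, and that of Synj1 over Synj2 5.47 and 1.54. The 12 pairs that did not pass say that a preference was not shown at this spread, not that the paralogs were equal.

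**Figure D2:**
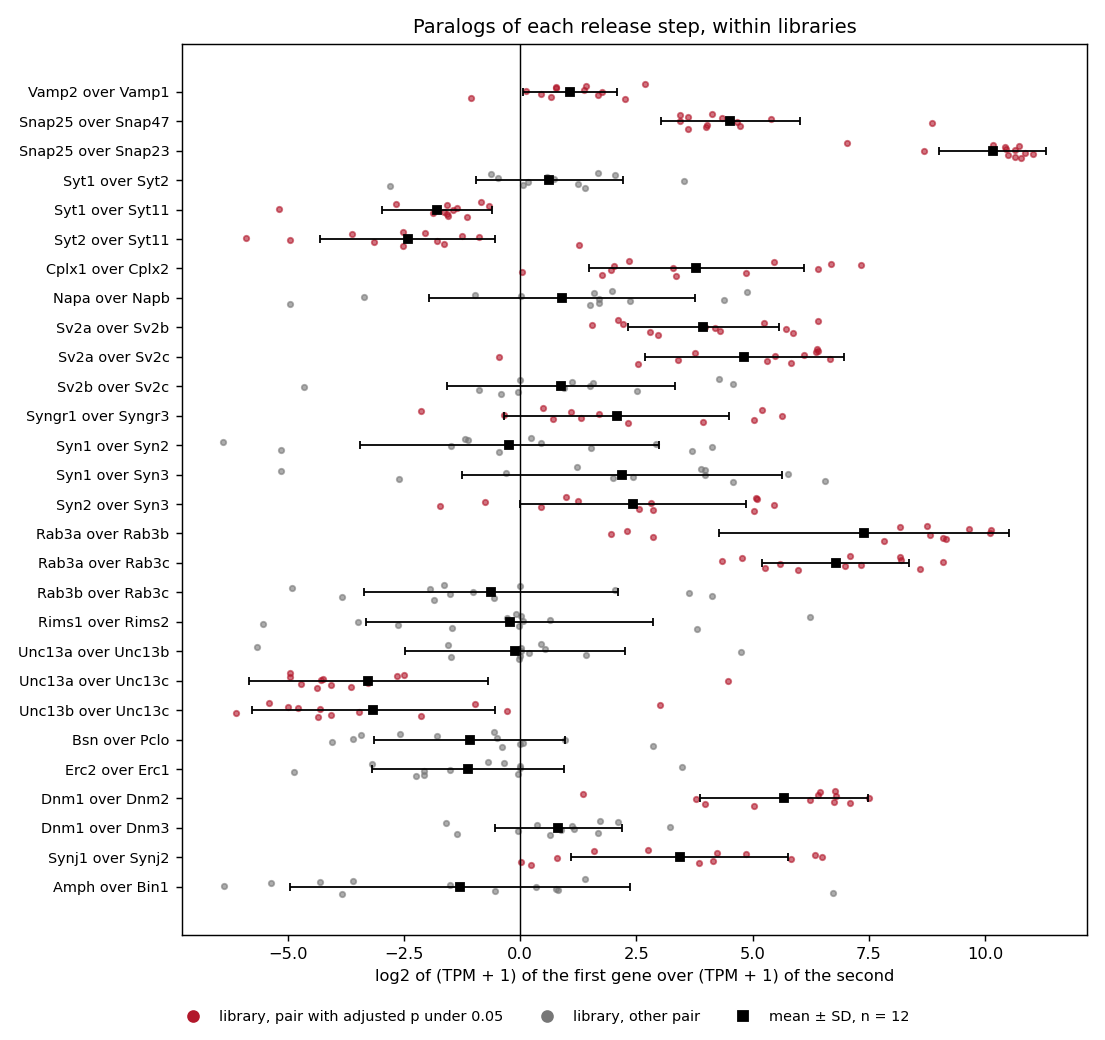
Log2 ratio of the first gene over the second, each as TPM + 1, for 28 of the 30 pairs of related release genes; points are the 12 libraries, squares the mean with its SD, and red marks the 16 of these pairs with an adjusted p under 0.05. The ratios of Snap25 over Snap23 lie between 7.03 and 11.0, whereas those of Syn1 over Syn2 spread from -6.38 to 4.13.

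Around the 38 genes, 85 further genes of the same steps were read, from a list drawn up with earlier results of these data known. Of these 85, 17 had at least 50 counts in every library, a limit that 6.98% of 21474 protein-coding genes met. No count in any library was found for 13, and the share of all genes without a count is not given here. Among the retrieval genes 6 of 16 had 50 counts throughout, and among those of SNARE recycling and chaperones 2 of 5. Of the retrieval genes, Ap2m1, a clathrin adaptor subunit, averaged 346 ± 260.0 TPM and Sh3gl2, endophilin A1, 147 ± 50.4 TPM (SD, n = 12 each). Hspa8, the chaperone that uncoats clathrin, averaged 1108 ± 483 TPM, and Rabac1, a Rab acceptor, 283 ± 181 TPM.

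Among the further genes listed with the calcium sensors and complexins, Syt4 was the highest at 66.8 ± 29.8 TPM. Cadps2, a priming factor of dense-core vesicles, followed at 44.4 ± 46.6 TPM, while Syt5, Syt16, Syt17, Cplx4 and Doc2a had no count. Napg, γ-SNAP, averaged 88.1 ± 78.3 TPM, Stx12, an endosomal syntaxin, 34.5 ± 24.1 TPM and Rab5a, an endosomal Rab, 83.5 ± 72.6 TPM. The vesicle membrane genes Scamp5 and Scamp1 averaged 40.5 ± 34.0 and 36.0 ± 40.6 TPM, and the active zone genes Lin7b and Cask 38.6 ± 74.9 and 22.4 ± 74.3 TPM, with at least 50 counts in 3 and 4 libraries. Lin7b averaged 23.0 TPM without library 10, with a median of 0.14 TPM over all 12, and Cask 0.935 TPM without library 11, with a median of 0.16 TPM.

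Among vesicular transmitter transporters and glycine uptake, Slc32a1, the GABA and glycine transporter of inhibitory vesicles, was the only one with at least 50 counts in every library, at 2.29, 15.8 and 41.3 TPM. Slc17a7, the glutamate transporter of granule cell terminals, stood at 0, 4.82 and 18.8 TPM. Slc17a6, Slc17a8 and Slc18a3, which load glutamate and acetylcholine in other neurons, had no count. Slc6a5, the glycine transporter of glycinergic terminals, reached 1.57 TPM at most, and Slc18a2, which loads monoamines, 9.51 TPM.

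The genes also differed in how evenly the divisions of the homogenate carried them. The coefficient of variation (CV, SD over mean of TPM) was 0.166 for Snap25, 0.363 for Vamp2 and for Dnm1, and 0.371 for Sv2a, and it reached 3.14 for Unc13b and 3.08 for Unc13a. Of 8 members from 100 to 1000 TPM, 6 had a CV below 0.602, the median of all genes of that range. Of 20 members from 10 to 100 TPM, 15 had one below the median of 1.30. These medians are over annotated genes of every type, and genes were not matched on length or on level within a range.

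A quasi-likelihood fit in edgeR over 13899 genes that averaged 5 or more counts set each gene's dispersion against the trend of genes of like abundance, and 37 of the 38 genes entered it. No member varied more than the trend at an adjusted p under 0.05, where 0.0144% of all genes did, and none varied less, where 2.14% did. DESeq2 marked 0 of the 37 as dispersion outliers, and none of any other gene. At an unadjusted edgeR p under 0.05, 0.684% of all genes tested lay above the trend and 5.89% below it. Of the 37 genes, 1 lay above at that limit, Napa (edgeR p = 0.0185, adjusted p = 0.773). Another 4 lay below it: Sncb, Dnm1, Vamp1 and Sv2a. The lowest of these was Sncb, at 0.147 of the trend (edgeR p = 0.00233, adjusted p = 0.0932), and it passed without library 1 (edgeR adjusted p = 0.0353) and with edgeR's robust prior (adjusted p = 0.0271). Of the 37 genes 48.6% lay below the trend, against 34.0% of all genes tested, and the median ratio to the trend was 1.05 for the 37 and 1.20 for all.

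**Figure D3:**
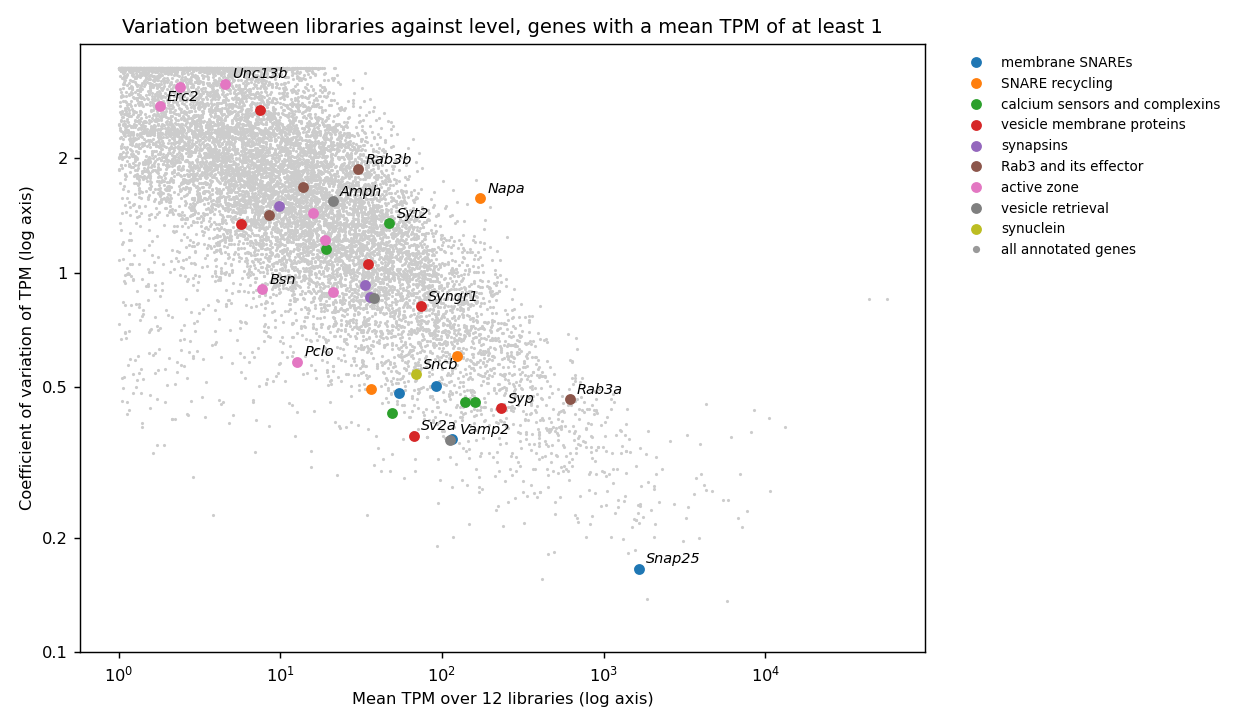
Coefficient of variation of TPM between the 12 libraries (y, log axis) against mean TPM (x, log axis) for the release genes by role (colours) and all annotated genes that averaged 1 TPM or more (grey). Snap25 sits at the lower right with a CV of 0.166, Napa stands out at 1.57 for its level, and Unc13b is near the top left at 3.14.

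Over the 136 pairs of the 17 genes with at least 50 counts in every library, the median Spearman correlation was 0.024, and over all 1613 such genes it was 0.0070. Both describe 12 libraries that share 1 homogenate. The libraries with the most members at their highest value were libraries 8 and 10, with 6 each, while libraries 3 and 13 held none.

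Transcript estimates were examined for the 26 release genes with a mean of at least 10 TPM and 2 or more annotated transcripts. In 8 of them the same transcript led in every library, and each of these held over 95% of the gene: Snap25-201, Snap47-201, Vamp1-201, Vamp2-201, Cplx1-201, Syp-201, Sv2a-201 and Sncb-201. Of these, Sv2a-201 fell to 58.5% in library 6 and Sncb-201 to 60.6% in library 5. For Syp-201, 875 of 2591 exon bases overlap Gm14703 on the opposite strand, which was listed at no more than 0.09 TPM.

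The other 18 changed their leading transcript between libraries or were absent from some. Syt1-201 led in 8 libraries with 53.2 ± 37.3% of Syt1, Syt2-201 in 7 with 63.6 ± 44.4% of Syt2, and Syt11-201 in 7 with 61.2 ± 39.0% of Syt11. Rab3a-201 led in 11 with 79.3 ± 24.0% of Rab3a; Rab3a-204 led in the other library and reached 433 TPM in library 10. Rims1-207 led in 5 libraries with 41.6 ± 46.8% of Rims1.

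In 3 genes the transcript with the highest mean is not annotated as protein coding. Dnm1-206, annotated as a target of nonsense-mediated decay, led in 11 libraries with 68.1 ± 24.6% of Dnm1; in library 10 the protein-coding Dnm1-205 held 97.2%. Napb-202, also annotated as a nonsense-mediated decay target, led in 10 libraries with 83.1 ± 38.7% of Napb, and the protein-coding Napb-201 led in the other 2. Pclo-203, a retained intron transcript, led in 5 libraries with 44.9 ± 42.2% of Pclo. The deposited estimates share reads out between transcripts that overlap for most of their length, so these shares are the authors' estimates and not counts of distinct reads.

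**Figure D4:**
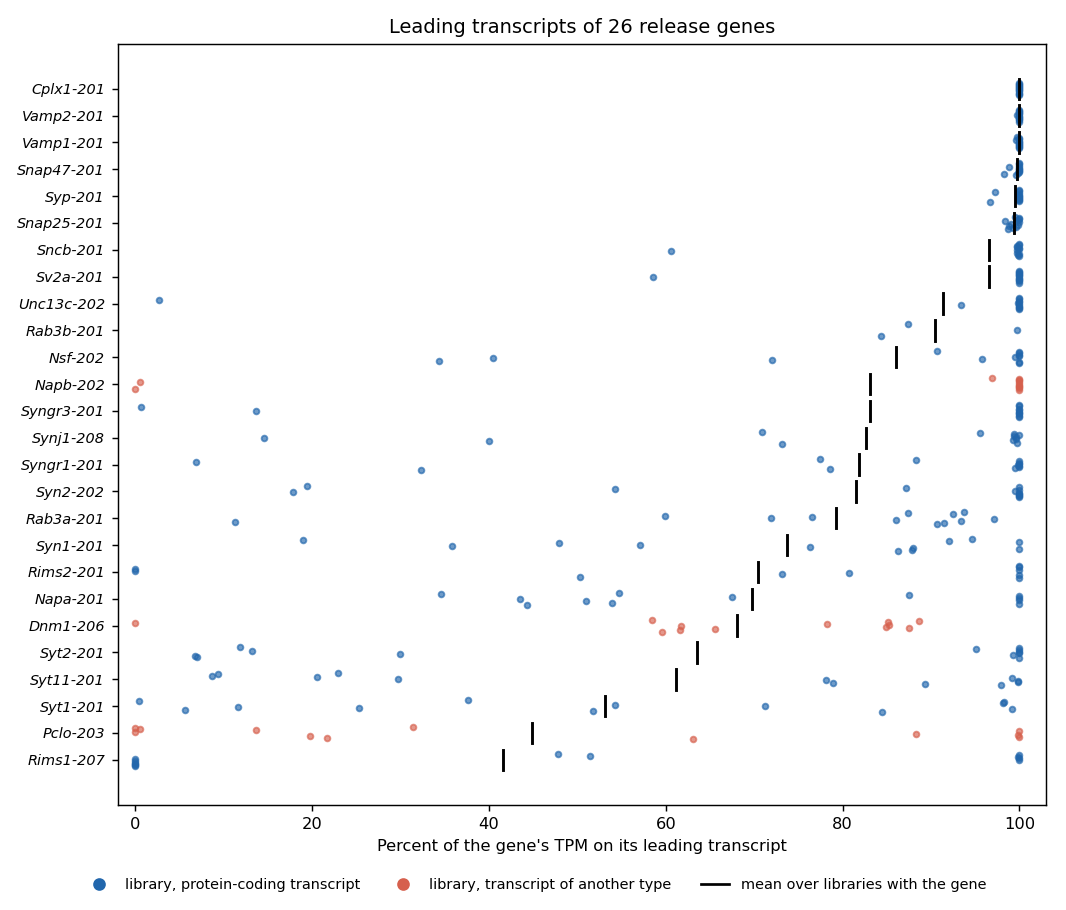
Percent of a gene's TPM on its leading transcript in each library (points) for 26 release genes, ordered by the mean (bar); blue marks protein-coding transcripts and red those of another annotated type. The 8 at the top hold over 95% on average, whereas Syt1-201, Pclo-203 and Rims1-207 run from under 1% to over 99%.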

How the data were processed

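The members and the other gene lists were chosen with earlier results of these data known. Per the labels, a Smart-seq protocol was used for the libraries and mm10 as the build; per the text deposited with each sample, the annotation was GENCODE M4. No aligner, quantifier or strand setting is named, being not given in the sources used here. Per the file headers, the authors deposited expected counts for genes and transcripts, which divide shared reads between features and need not be whole, and TPM values that include the spike-ins. Each table has 69691 gene features, of which 43346 are annotated genes. GENCODE M21, on the same build, supplied symbols, transcript types and coordinates, matched by gene ID without version.

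Pairs of genes were compared within libraries as the mean log2((TPM + 1)/(TPM + 1)) of the first over the second, with a two-sided, exact permutation test by sign flips over 4096 sign patterns and Benjamini-Hochberg adjustment over 30 pairs at 0.05. For variation, expected counts rounded to whole numbers were fitted in edgeR 4.0.16 (TMM factors, intercept-only glmQLFit, genes averaging 5 or more counts), each quasi-dispersion was set against the abundance trend by an F test, and p-values were adjusted over all genes tested. DESeq2 1.42.0 supplied other size factors and a dispersion-outlier mark. Both procedures were tested on simulated data. A count of 0 was read as up to 3 counts. Intervals and limits cover counting error only, since the reads carry no molecular identifiers. Named were all 38 members, every gene of a pair, every transporter, and the 2 highest of each role in the further list, except that 2 of the 30 pairs tested, and some genes of the further list, are not reported here. Python 3.11.15, numpy 2.4.6, scipy 1.17.1 and R 4.3.3 were used.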

Additional observations from a re-analysis of the deposited data

How the results depend on the processing

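All 18 pairs that passed kept their direction and stayed under 0.05 in each of 17 alternatives, though the size of ratios with low genes moved with the pseudocount, and the number of pairs called was 18 to 21 with 1 library left out. Pairs that had not passed were less stable. Unc13a over Unc13b turned to 0.18 with a pseudocount of 0.1 and to 0.66 on CPM, Rab3b over Rab3c to 0.23 with a pseudocount of 10, and on CPM Napa over Napb to -0.47 and Dnm1 over Dnm3 to -0.78. CPM is not scaled by length, and for the other changes the cause was not tested. On CPM, Sv2b over Sv2c (2.30), Rab3b over Rab3c (-3.12) and Bsn over Pclo (-2.34) passed, as did Erc2 over Erc1 with a pseudocount of 0.1 (-2.47). With 1 library left out, Unc13a over Unc13b ran from -0.55 to 0.39, Syn1 over Syn2 from -0.63 to 0.33 and Rims1 over Rims2 from -0.81 to 0.26.

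No member varied more than the abundance trend in any alternative. Below the trend the robust prior called 1 member, and leaving out a library 0 to 1; it was Sncb each time, whose edgeR adjusted p ran from 0.0271 to 0.181. At least 1 count in every library was met by 27 members. With a given library left out, 17 to 18 members had at least 50 counts in every remaining library. On CPM the active zone genes held 6.25% of the members' sum and the calcium sensors and complexins 13.8%, since long transcripts weigh more. A leading transcript in every library was found for 10 genes by expected counts, against 8 by TPM. No paired analysis was possible because the libraries form 1 group.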
